A study of Homo sapiens with 6 samples.

Results

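Aminoacyl-tRNA synthetases are the enzymes that join each amino acid to its transfer RNA. They were taken from the gene expression table of SW480 cells, a long-established line from a human colorectal tumour, as the protein-coding genes whose symbol is 1 letter followed by ARS or ARS2, together with EPRS, FARSA and FARSB. This gave 37 of 58735 genes, 20 cytosolic enzymes or subunits and 17 mitochondrial ones, whose names end in 2. The 6 libraries were SW480 cells of wild-type genotype transfected with a negative control siRNA (n = 3) or with an siRNA against ITGB4 (n = 3), the integrin β4 subunit of hemidesmosomes. The series calls the libraries of a group biological replicates, and the labels give neither the siRNA sequence nor the time after transfection. All cells are of a single line, and the labels name 1 siRNA target with no second siRNA. All values are FPKM, which divides the fragments of a gene by its length and by the library size, so levels of different genes are compared per length.

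Cytosolic protein synthesis and mitochondrial protein synthesis use separate sets of transfer RNAs, and nuclear genes encode the synthetases of both. Most amino acids have a pair of enzymes, one for each compartment, while glycine and lysine are each served in both compartments by the products of a single gene (GARS and KARS). Several cytosolic synthetases sit together in a multi-synthetase complex held by AIMP scaffold proteins. When amino acids are short, uncharged transfer RNA activates the kinase GCN2 (EIF2AK4), and the transcription factor ATF4 then induces many cytosolic synthetase genes together with amino acid transporters.

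The libraries held 13715266 to 15496274 reads recovered from the FPKM values, and 24284 to 24968 genes had a value above 0. ITGB4 was at 74.3, 63.8 and 69.8 FPKM with control siRNA and at 41.1, 38.1 and 37.9 FPKM with its own siRNA, so it fell by 43.7% and was not lost (log2 fold change -0.81, limma adjusted p = 0.0148). The colon epithelial markers KRT8, KRT18, KRT19, EPCAM, CDX2 and CDH1 were above 1 FPKM, 6 of 9 listed, while KRT20, VIL1 and CDH17 were below it. The summed epithelial markers ranged from 1471 to 1649 FPKM with control siRNA and from 1523 to 1564 FPKM with ITGB4 siRNA. None of 8 fibroblast, 6 endothelial and 7 leukocyte markers reached 1 FPKM, with sums of 0.471 to 0.857, 0.178 to 0.242 and 1.01 to 1.42 FPKM in control libraries and of 0.470 to 0.667, 0.163 to 0.242 and 0.998 to 1.19 FPKM with ITGB4 siRNA. COL1A2, COL3A1, DCN, LUM, FAP, CDH5, KDR and MS4A1 were at 0 in all 6 libraries. In bulk RNA, fewer cells of a type and less RNA per cell cannot be told apart.

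All 37 synthetase genes had a mean above 1 FPKM over the 6 libraries, the minimum for testing, which 12871 genes of the table reached. The cytosolic genes had a median of 28.6 FPKM and the mitochondrial genes a median of 8.84 FPKM. Summed per library, the cytosolic genes gave 586.4, 593.3 and 587.6 FPKM with control siRNA and 595.7, 598.8 and 600.9 FPKM with ITGB4 siRNA. The mitochondrial genes gave 178.0, 181.1 and 179.8 FPKM against 180.7, 179.2 and 188.2 FPKM. The cytosolic sums did not overlap between the groups, with means 589.1 ± 3.69 and 598.5 ± 2.62 FPKM (SD, n = 3 each), and the mitochondrial sums overlapped. The nearest cytosolic sums were 593.3 FPKM with control siRNA and 595.7 FPKM with ITGB4 siRNA. Among all single genes tested, 11.1% had groups that did not overlap, and the difference of the sums was not tested. The mitochondrial genes made up 23.0% to 23.9% of the summed FPKM of the 37 genes in every library.

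FARSA, the catalytic subunit of the cytosolic phenylalanyl-tRNA synthetase, was the highest of the 37 genes in FPKM on the deposited gene length. It was at 58.0, 51.4 and 53.1 FPKM with control siRNA and at 55.0, 53.0 and 53.7 FPKM with ITGB4 siRNA. The groups overlapped, with means of 54.2 ± 3.48 and 53.9 ± 1.01 FPKM (SD, n = 3 each) and a log2 fold change of -0.005 (SE 0.0542, limma adjusted p = 0.998, exact permutation p = 0.9). KARS, the lysyl enzyme of both compartments, followed at 50.01, 50.5 and 50.2 FPKM with control siRNA and at 50.3, 53.0 and 52.8 FPKM with ITGB4 siRNA. Its groups overlapped in the lowest library of the ITGB4 siRNA group (log2 fold change 0.05, SE 0.0399, limma adjusted p = 0.998, exact permutation p = 0.2). GARS, the glycyl enzyme of both compartments, was at 45.7, 48.2 and 46.8 FPKM with control siRNA and at 48.3, 47.8 and 47.3 FPKM with ITGB4 siRNA (log2 fold change 0.03, SE 0.0397, limma adjusted p = 0.998, exact permutation p = 0.3). Without control siRNA replicate 1 or 2 the difference of GARS was 0.009 or 0.047, and that of FARSA was 0.045 or -0.042. DARS (aspartyl) averaged 44.7 FPKM over the 6 libraries, IARS (isoleucyl) 40.2 and RARS (arginyl) 40.1. CARS (cysteinyl) was the lowest of the cytosolic genes on this scale at 5.62 FPKM, and YARS (tyrosyl) was next at 13.97 FPKM. The order changed with the length used. A rescaling to the length of the principal protein-coding transcript, with the reads of all exons kept, was chosen after the data had been seen. On that scale KARS was first at 103.6 FPKM, then DARS at 76.1, GARS at 74.6 and FARSA at 72.5. FARSB was then the lowest cytosolic gene at 17.8 FPKM, below CARS at 21.0, and YARS at 35.4 FPKM was above EPRS, NARS and LARS.

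The lowest levels were all mitochondrial on either length. SARS2, the mitochondrial seryl enzyme, was at 1.63, 1.48 and 1.60 FPKM with control siRNA and at 1.59, 1.40 and 1.39 FPKM with ITGB4 siRNA, from 69 to 79 reads per library. Its groups overlapped (log2 fold change -0.07, SE 0.0869, limma adjusted p = 0.998, exact permutation p = 0.2). FARS2, the mitochondrial phenylalanyl enzyme, was at 1.72, 2.16 and 1.43 FPKM against 1.73, 2.22 and 2.03 FPKM, and it had the largest spread within the control group, a coefficient of variation of 21.0% (log2 fold change 0.12, SE 0.123, limma adjusted p = 0.998, exact permutation p = 0.4). WARS2 (tryptophanyl) was at 3.22, 3.39 and 3.14 FPKM against 2.97, 3.47 and 3.01 FPKM (log2 fold change -0.04, SE 0.0736, limma adjusted p = 0.998, exact permutation p = 0.6). PARS2 (prolyl) averaged 3.24 FPKM, within the range of WARS2. Single libraries moved these differences: FARS2 was 0.027 without control siRNA replicate 3 and 0.219 without control siRNA replicate 2. WARS2 was -0.005 without ITGB4 siRNA replicate 1 and -0.091 without ITGB4 siRNA replicate 2, and SARS2 was -0.103 without ITGB4 siRNA replicate 1. The scale moved them too with all 6 libraries kept. FARS2 was 0.196 with limma-voom and 0.176 with a pseudocount of 0.1, and SARS2 was -0.112 and -0.104. At the other end of the mitochondrial genes, IARS2 averaged 42.6 FPKM and YARS2 20.7 FPKM.

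**Figure D1:**
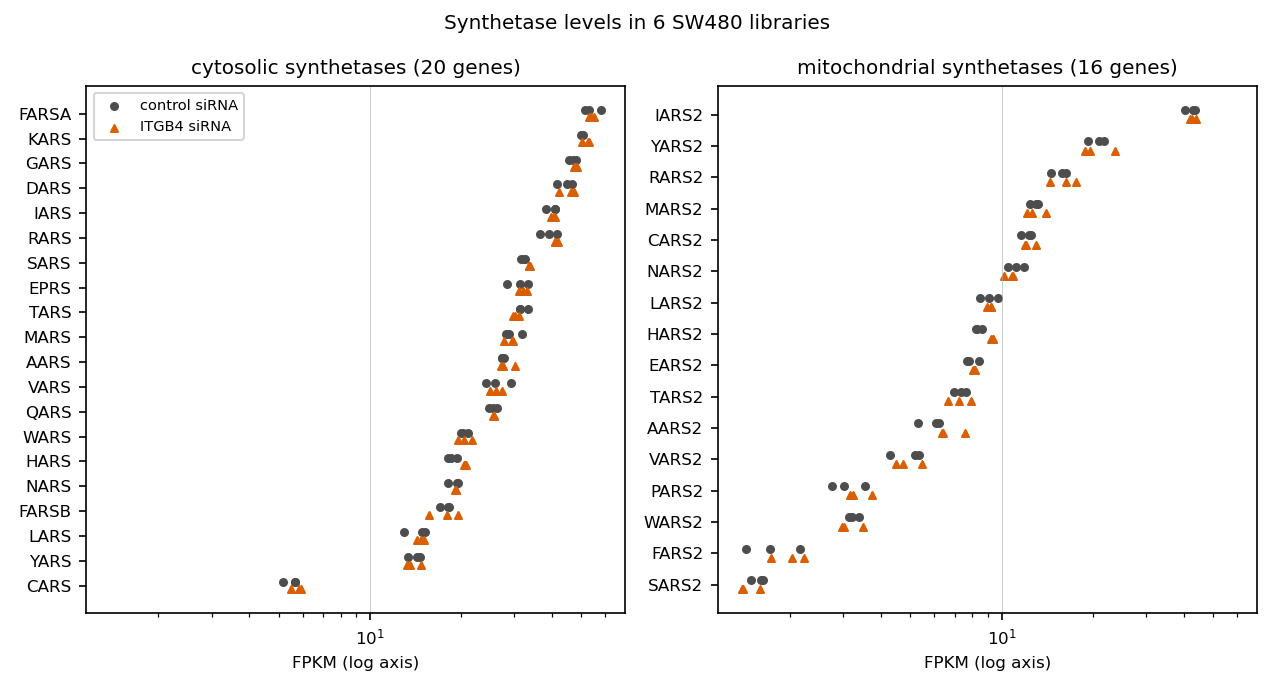
Each point is 1 library (FPKM, log axis): circles are the 3 control siRNA libraries and triangles the 3 ITGB4 siRNA libraries, with cytosolic genes on the left and mitochondrial genes on the right, ordered by mean level, for the 36 genes described singly. The groups of a gene are drawn on separate rows, control siRNA above ITGB4 siRNA. Their ranges overlap for most genes and do not overlap for HARS, HARS2, SARS, AARS2 and TARS. The nearest libraries of the groups are close for AARS2 (6.23 and 6.37 FPKM) and TARS (31.4 and 31.1 FPKM).

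In most amino acids the cytosolic enzyme had the higher transcript level. For 14 amino acids the table holds 1 cytosolic and 1 mitochondrial gene, and the cytosolic gene was higher in 6 of 6 libraries for 11 of them. The median ratio of cytosolic to mitochondrial mean FPKM was 2.40. It was largest for serine, with SARS at 33.0 and SARS2 at 1.52 FPKM, a ratio of 21.8 (19.8 to 24.1 over libraries). That ratio rests on 69 to 79 reads of SARS2 per library. SARS2 shares 349 exon bases with its neighbour MRPS12 on the other strand, and reads of this overlap cannot be assigned without the strand setting. Tryptophan followed with a ratio of 6.43 (5.90 to 7.33) and valine with 5.35 (4.995 to 5.64). Asparagine and leucine had the smallest ratios above 1, with 1.75 (1.52 to 1.88) for NARS over NARS2 and 1.60 (1.34 to 1.75) for LARS over LARS2.

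Cysteine, isoleucine and tyrosine went the other way in FPKM, the mitochondrial gene being higher in 6 of 6 libraries. CARS2 averaged 12.2 FPKM against 5.62 for CARS, IARS2 42.6 against 40.2 for IARS, and YARS2 20.7 against 13.97 for YARS. The order of these pairs depended on the length used. The deposited gene length counts every exon base of every annotated transcript, which is 5.57 times the principal transcript for CARS2, 3.74 times for CARS and 3.22 times for HARS. Rescaled to the principal transcript, the cytosolic gene was higher in 13 of 14 pairs and the median ratio was 3.34. The rescaling keeps the reads of all exons, so reads outside the principal transcript raise the value, most where the deposited length is much longer. Cysteine was then the exception, with 68.1 FPKM for CARS2 and 21.0 for CARS. IARS over IARS2 became 1.28 and YARS over YARS2 became 1.69 on that scale. The order of the larger ratios changed as well: serine (28.7) and tryptophan (9.62) were followed by methionine (5.51, from 2.28), alanine (5.11) and histidine (4.81), and valine became 3.64.

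**Figure D2:**
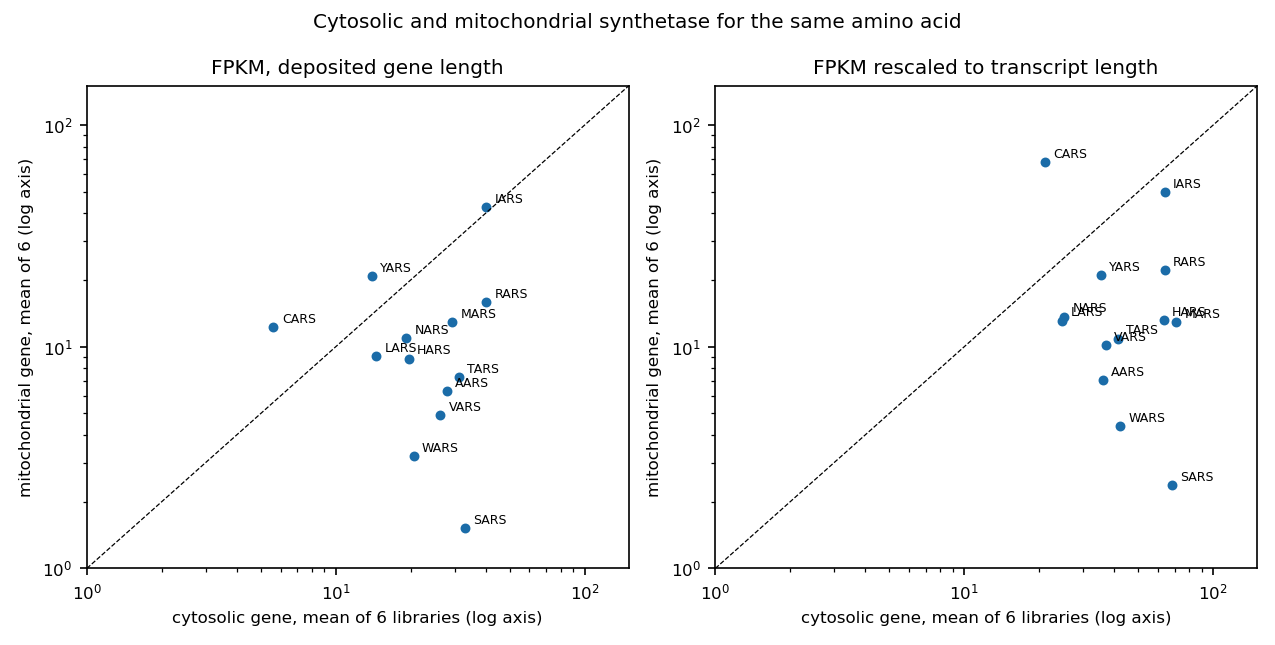
Mean FPKM over 6 libraries of the cytosolic gene (horizontal, log axis) and the mitochondrial gene (vertical, log axis) for 13 of the 14 amino acids, each point named after its cytosolic gene, with the deposited gene length on the left and the principal transcript length on the right. Points above the dashed line of equal levels are CARS, IARS and YARS on the left and CARS alone on the right.

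The remaining enzymes do not form such pairs. The cytosolic phenylalanyl enzyme is built from equal numbers of FARSA and FARSB subunits, and the level of FARSA was 3.03 times that of FARSB (2.70 to 3.504 over libraries, and 4.07 per kilobase of principal transcript). FARSB averaged 17.8 FPKM in both groups. EPRS, which carries the glutamyl and the prolyl enzyme in 1 protein, averaged 31.6 FPKM, against 8.04 for EARS2 and 3.24 for PARS2. QARS, the cytosolic glutaminyl enzyme, averaged 25.6 FPKM and has no counterpart among the mitochondrial names. In mitochondria, glutaminyl-tRNA is made by an amidotransferase whose subunits QRSL1, GATB and GATC are described with the related genes.

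With ITGB4 siRNA no synthetase passed the test. Of 37 genes, limma with Benjamini-Hochberg adjustment over all 12871 genes tested called 0 changed, where it called 0.0466% of all genes, 0.0233% higher and 0.0233% lower. limma-voom on the recovered reads also called 0 of the 37. At an unadjusted limma p under 0.05 there were 2 synthetases, HARS and HARS2, both higher, and limma-voom had 1. Of all genes tested, 5.83% had such a p, 2.91% higher and 2.92% lower. The groups did not overlap for 5 of the 37 genes (13.5%), 4 higher (HARS, HARS2, AARS2 and SARS) and 1 lower (TARS), beside 11.1% of all genes tested, 5.75% higher and 5.36% lower.

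The differences of the 37 genes were small in both directions. The log2 fold change was above 0 for 24 and below 0 for 13 (64.9% above 0, beside 48.5% of all genes tested), with a median of 0.019, beside -0.003 for all genes. The 20 cytosolic genes ranged from -0.08 for TARS to 0.14 for HARS, 14 above and 6 below 0, median 0.024. The 17 mitochondrial genes ranged from -0.07 for SARS2 to 0.18 for AARS2, 10 above and 7 below 0, median 0.004. Leaving out 1 library at a time moved the cytosolic median between 0.019 and 0.042 and the mitochondrial median between -0.002 (without ITGB4 siRNA replicate 3) and 0.034 (without ITGB4 siRNA replicate 2), and 22 of the 36 genes described singly turned sign in at least 1 such fit. The 95% interval on the log2(FPKM + 1) scale lay within -0.26 and 0.26 for 33 of the 37 genes, 20 of 20 cytosolic and 13 of 17 mitochondrial. Of all genes tested, 50.2% had such an interval, at a median level of 6.24 FPKM against 17.8 FPKM for the synthetases. Levels were not matched. The upper bound is a rise of about 20% on that scale, and for genes of low FPKM a given bound is a larger change in FPKM. AARS2, FARS2, PARS2 and SARS2 reached past these bounds, and for FARS2 the interval ran from -0.17 to 0.41.

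**Figure D3:**
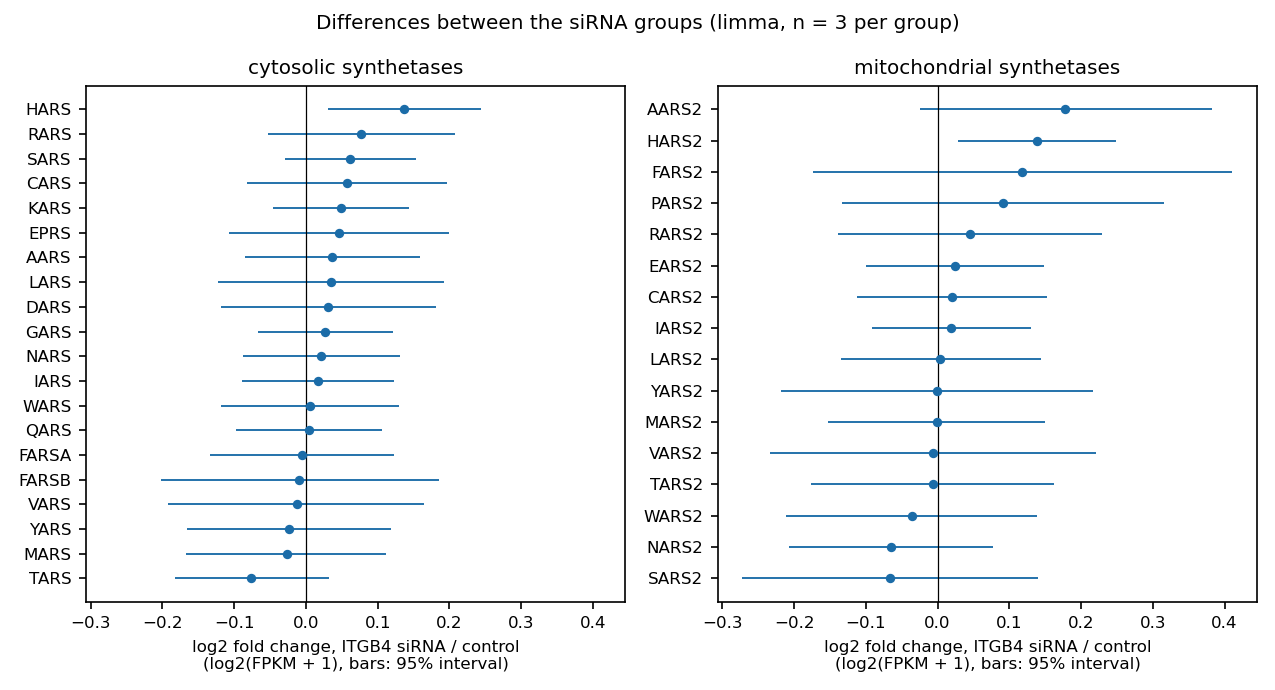
Log2 fold change of each synthetase between ITGB4 siRNA and control siRNA on the log2(FPKM + 1) scale (points, limma) with its 95% interval (bars), n = 3 libraries per group. The intervals of HARS and HARS2 lie above 0, and those of the other genes drawn include 0.

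HARS and HARS2, the cytosolic and mitochondrial histidyl enzymes, had the smallest p-values of the 37. HARS was at 19.4, 18.5 and 18.1 FPKM in the control libraries and at 20.6, 20.6 and 20.8 FPKM in the ITGB4 siRNA libraries. Every ITGB4 siRNA library was above every control library, with means of 18.7 ± 0.675 and 20.6 ± 0.119 FPKM (SD, n = 3 each), 10.5% higher. On the log2 scale the difference was 0.14 with an SE of 0.0449 (95% interval 0.03 to 0.24; limma adjusted p = 0.7503, exact permutation p = 0.1, the smallest that 3 against 3 libraries allow). HARS2 was at 8.21, 8.63 and 8.27 FPKM against 9.35, 9.37 and 9.21 FPKM, again without overlap, with means of 8.37 ± 0.227 and 9.31 ± 0.0870 FPKM (SD, n = 3 each), 11.2% higher. For HARS2 the log2 difference was 0.14 with an SE of 0.0466 (95% interval 0.03 to 0.25; limma adjusted p = 0.768, exact permutation p = 0.1). Neither gene passed the adjusted threshold. The ratio of HARS to HARS2 ranged from 2.15 to 2.37 in control libraries and from 2.20 to 2.26 in ITGB4 siRNA libraries.

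The histidyl genes are neighbours that face away from each other. HARS (ENSG00000170445) lies on the minus strand of chromosome 5 at 140673904 to 140691862 and HARS2 (ENSG00000112855) on the plus strand at 140691426 to 140699318 (GRCh38). Their annotated genes overlap by 437 exon bases at their starts, 5.57% of the counted length of HARS and 11.7% of that of HARS2. The labels do not say whether counting used the strand, so reads of this overlap cannot be assigned to either gene, and the part of the overlap in the shared direction was not tested. HARS also shares 221 exon bases with WDR55 on the other strand, which had a log2 fold change of 0.04. In RefSeq (GRCh38.p14) the start sites are 85 bases apart, and the stretch between them, chr5:140691371-140691454, is shown because it lies between the starts of the only pair, of the 14, in which both genes had groups that did not overlap. It is printed on the plus strand, 84 bases with 59.5% G and C, and capitals mark the matches to CCGGAAG, the core word bound by ETS family factors, on either strand.
HARS-HARS2: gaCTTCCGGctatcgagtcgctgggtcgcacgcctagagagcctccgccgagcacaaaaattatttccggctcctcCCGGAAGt
There are 2 such matches, 1 near each start and in opposite orientation.

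A start of another gene on the opposite strand lay within 1000 bases for 16 of the 37 synthetases. For 12 of these the neighbour was also tested, and the log2 fold changes of synthetase and neighbour had the same sign in 4 of the 12 (HARS and HARS2 each count the other). SARS2 starts 348 bases from MRPS12, a protein of the mitochondrial ribosome, with which it shares 349 exon bases, 10.8% of its counted length. The control and ITGB4 siRNA means of MRPS12 were 35.9 ± 3.47 and 36.7 ± 1.67 FPKM (SD, n = 3 each). Its log2 fold change was 0.03, against -0.07 for SARS2. RARS2 starts 64 bases from ORC3, a subunit of the origin recognition complex, and the pair had log2 fold changes of 0.05 and -0.10. EARS2 starts 369 bases from UBFD1, with 0.02 and -0.12. These neighbours and WDR55 were chosen for naming after their values were seen. Exons of a tested gene on the other strand overlapped 11 of the 37 synthetases. Overlaps with genes on the same strand were not examined.

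AARS2, the mitochondrial alanyl enzyme, had the largest difference among the 37. It was at 6.23, 5.31 and 6.08 FPKM with control siRNA and at 7.58, 6.40 and 6.37 FPKM with ITGB4 siRNA. The highest value was replicate 1 of the ITGB4 siRNA group, and the other 2 libraries of that group were just above the highest control library. The means were 5.87 ± 0.494 and 6.78 ± 0.690 FPKM (SD, n = 3 each), 15.5% higher, and the log2 difference was 0.18 with an SE of 0.0858 (95% interval -0.03 to 0.38; limma adjusted p = 0.926, exact permutation p = 0.1). Without ITGB4 siRNA replicate 1 the log2 difference of AARS2 was 0.106, and without control siRNA replicate 2 it was 0.118. Its cytosolic partner AARS averaged 27.5 ± 0.238 and 28.2 ± 1.63 FPKM (SD, n = 3 each), with overlapping groups.

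SARS and TARS, the cytosolic seryl and threonyl enzymes, differed in opposite directions. SARS was at 32.7, 32.4 and 31.7 FPKM with control siRNA and at 34.0, 33.6 and 33.5 FPKM with ITGB4 siRNA. All 3 ITGB4 siRNA libraries were above the controls, by 4.52% in the means (log2 fold change 0.06, SE 0.0383, limma adjusted p = 0.983, exact permutation p = 0.1). TARS was at 31.5, 33.4 and 31.4 FPKM against 30.3, 29.7 and 31.1 FPKM. All 3 ITGB4 siRNA libraries were below the controls, the closest values being 31.1 and 31.4 FPKM (log2 fold change -0.08, SE 0.0452, limma adjusted p = 0.976, exact permutation p = 0.1). RARS, the arginyl enzyme, was at 36.4, 41.5 and 39.2 FPKM against 41.0, 41.8 and 40.8 FPKM. Its groups overlapped, and the control library of replicate 1 was the lowest of the 6 (log2 fold change 0.08, SE 0.0551, limma adjusted p = 0.998, exact permutation p = 0.3). Without that library the log2 fold change of RARS was 0.029, and without control siRNA replicate 2 that of TARS was -0.048.

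The 8 synthetases of the multi-synthetase complex (EPRS, IARS, LARS, MARS, QARS, RARS, KARS and DARS) had a log2 fold change above 0 in 7 and below 0 in 1, MARS, with a median of 0.033 and a range of -0.03 to 0.08. None had groups without overlap. Without control siRNA replicate 1 the count became 4 above and 4 below 0, with a median of 0.005. The 12 other cytosolic genes had 7 above and 5 below 0 and a median of 0.014, and without that library 9 above, 3 below and a median of 0.03. Synthetases fall into a pair of unrelated folds, class I and class II. The 18 class I genes had 11 above and 7 below 0, a median of 0.005 and no gene without overlap, and the 18 class II genes had 12 above and 6 below 0, a median of 0.029 and 5 genes without overlap (27.8%, beside 11.1% of all genes tested). Without control siRNA replicate 1 the medians were 0.024 for class I and 0.022 for class II. EPRS holds a domain of each class and was left out of that split. The class II genes without overlap include HARS and HARS2, which share 437 exon bases at their starts and are not fully separate. The difference between the classes was not tested.

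ATF4 is a known common regulator of cytosolic synthetase genes, through a response element of the form TGATGNAA (N is any base). RefSeq windows from 250 bases before to 50 bases after a start were at hand for 30 of the 37 synthetases, and 7, among them AARS2, DARS, LARS, VARS, VARS2 and YARS, had none. The 30 genes had 39 windows, since 9 of them have more than 1 start, and a gene was counted when any of its windows held the word. TGATGNAA occurred on either strand in 8 of the 30 genes (26.7%), 7 of 16 cytosolic and 1 of 14 mitochondrial, beside 4.46% of all 27305 genes with a window and 3.60% of 15842 protein-coding genes. Counted by window, it was in 20.5% of the 39, beside 3.62% of all windows and 2.69% of those of protein-coding genes. The matches are shown because they mark the members a common ATF4 response would be looked for in. Each line gives 30 bases on the gene's own strand (RefSeq, GRCh38.p14), with the match in capitals.
AARS (chr16:70289675-70289704, minus strand): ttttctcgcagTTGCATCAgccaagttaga
CARS (chr11:3057407-3057436, minus strand): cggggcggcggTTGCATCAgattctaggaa
GARS (chr7:30594834-30594863, plus strand): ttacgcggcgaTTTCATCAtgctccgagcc
IARS (chr9:92293692-92293721, minus strand): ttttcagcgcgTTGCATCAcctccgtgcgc
MARS (chr12:57488053-57488082, plus strand): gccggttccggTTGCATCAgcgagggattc
NARS (chr18:57621804-57621833, minus strand): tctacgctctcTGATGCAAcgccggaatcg
TARS (chr5:33440956-33440985, plus strand): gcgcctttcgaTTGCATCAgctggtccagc
YARS2 (chr12:32756076-32756105, minus strand): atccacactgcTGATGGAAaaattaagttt
AARS, CARS, IARS, MARS and TARS carry the same 8 bases, TTGCATCA, and NARS carries them on the other strand. A match is a description of the letters and does not show binding.

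None of the genes with this word passed the test. AARS, CARS, GARS, IARS and NARS had log2 fold changes of 0.04, 0.06, 0.03, 0.02 and 0.02, MARS and TARS had -0.03 and -0.08, and YARS2 had -0.001. None had a limma adjusted p below that of TARS, 0.976. The ETS word CCGGAAG was found in 16 of the 30 genes (53.3%), 9 cytosolic and 7 mitochondrial, beside 12.2% of all and 16.5% of protein-coding genes, and in 48.7% of the windows, beside 10.3% and 12.8%. HARS and HARS2 are both counted, though their windows hold the same matches. The E-box CACGTG, bound by MYC, was found in 4 (13.3%, beside 8.77% and 10.9%), and GCGCATGC, bound by NRF1, in 2 (6.67%, beside 3.68% and 4.89%), MARS2 and YARS2. Both strands were searched for each word, and no word searched contains another.

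ATF4 and its other known targets were compared as a list, without the synthetases. Of 25 genes 23 were tested, 0 were called changed, 7 were above and 16 below 0, and the median log2 fold change was -0.027. ATF4 itself averaged 82.5 FPKM with control siRNA and 79.4 FPKM with ITGB4 siRNA. At an unadjusted limma p under 0.05 there were 3 of the 23 genes, all higher. Of all genes tested, 5.83% had such a p, 2.91% higher and 2.92% lower. DDIT3, the stress-induced factor CHOP, was at 12.7, 12.7 and 13.6 FPKM with control siRNA and at 14.8, 15.1 and 16.3 FPKM with ITGB4 siRNA, without overlap (18.4% higher, log2 fold change 0.23, limma adjusted p = 0.519, exact permutation p = 0.1). TRIB3, a pseudokinase induced with it, was at 22.3, 16.8 and 17.1 FPKM against 26.3, 23.4 and 22.8 FPKM (29.1% higher, log2 fold change 0.36, limma adjusted p = 0.729, exact permutation p = 0.1). SLC7A1, a transporter of arginine and lysine, was 9.93% higher (log2 fold change 0.13, limma adjusted p = 0.676). ASNS and NUPR1 were below 1 FPKM and were not tested with limma. ASNS, with 24 to 34 reads per library, averaged 0.481 FPKM with control siRNA and 0.372 FPKM with ITGB4 siRNA, without overlap. This was 22.6% lower (exact permutation p = 0.1). DDIT3 overlaps 355 exon bases of MARS on the other strand, 5.05% of the counted length of MARS, whose log2 fold change was -0.03. The counted length of DDIT3 itself is 1307 bases, so the overlap is a far larger part of DDIT3. Reads of this overlap cannot be assigned without the strand setting.

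Genes that work beside the synthetases had 0 calls in every list. Of the scaffolds, paralogs and editing partners, 7 of 10 were tested, 3 above and 4 below 0, median -0.018. In this list EEF1E1, the scaffold also called AIMP3, had a log2 fold change of -0.11, AIMP2 0.05 and SEPSECS, which makes selenocysteinyl-tRNA, -0.13. The mitochondrial amidotransferase subunits and the formyltransferase MTFMT, 4 genes, ranged from -0.02 to 0.02. Of the cytosolic elongation factors, 7 of 8 were tested, 5 above and 2 below 0, median 0.035. EEF1G, the other one, was at 0 in all 6 libraries, and the reason was not tested. Of the 7 mitochondrial translation factors 5 were above and 2 below 0, median 0.055. Mitochondrial tRNA processing and modification enzymes had 3 of 14 above 0 and 11 below, median -0.024. CDK5RAP1, which modifies mitochondrial tRNAs, was the 1 gene of these 14 with groups that did not overlap (7.14%, beside 11.1% of all genes tested). It was at 15.3 ± 0.190 FPKM with control siRNA and 16.2 ± 0.562 FPKM with ITGB4 siRNA (SD, n = 3 each, limma adjusted p = 0.976). Of 10 genes of uncharged tRNA sensing, tRNA splicing and export, 5 were above and 5 below 0, median 0.002. TSEN15, a subunit of the tRNA splicing endonuclease, alone of the 10 had an unadjusted limma p under 0.05 (log2 fold change -0.16, limma adjusted p = 0.813). Such a p was found for 5.83% of all genes tested, 2.91% higher and 2.92% lower.

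WARS, the tryptophanyl enzyme, is also known as a gene induced by interferon, so interferon-induced genes were read beside it. Of 16 such genes 10 were tested, 1 above and 9 below 0, median -0.065 (OAS1 -0.18, STAT2 -0.11, TAP1 -0.10), with 0 called. For WARS the group means were 20.5 ± 0.501 and 20.6 ± 1.08 FPKM (SD, n = 3 each), 0.01 apart on the log2 scale.

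**Figure D4:**
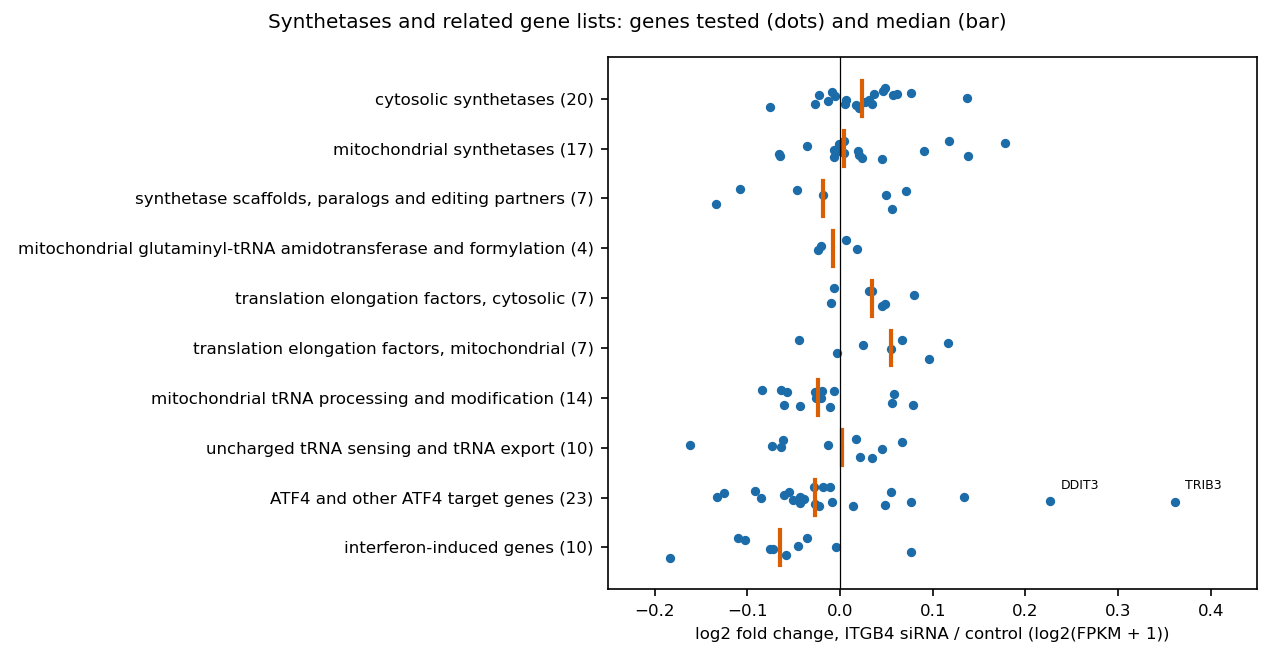
Log2 fold change (ITGB4 siRNA over control siRNA, log2(FPKM + 1)) of each tested gene of the synthetase groups and of 8 related lists (dots), with the list median (bar) and the number of genes in brackets. The medians lie between -0.07 and 0.06, and DDIT3 and TRIB3 lie furthest to the right.

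The spread between replicates was small for most synthetases. The median coefficient of variation was 4.87% in control libraries, from 0.512% for KARS to 21.0% for FARS2, and 3.75% in ITGB4 siRNA libraries, from 0.431% for NARS to 12.6% for YARS2. Among the control libraries, replicate 1 was the highest for 9 and the lowest for 9 of the 20 cytosolic genes, replicate 2 for 10 and 6, and replicate 3 for 1 and 5. The difference between replicate 1 and the mean of replicates 2 and 3 had the same sign in both groups for 29 of 37 synthetases (78.4%), 13 higher and 16 lower, beside 67.2% of all genes tested. Its median size was 0.09 in control and 0.06 in ITGB4 siRNA libraries on the log2 scale, beside 0.03 for the siRNA difference. All genes tested had the same order, with 0.134, 0.0874 and 0.0586, and a single library against a mean of 2 varies more by construction than a difference between means of 3.

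The genes that differed most in replicate 1 took opposite sides. VARS (valyl) was at 29.2 FPKM in control replicate 1 and at 24.2 and 25.9 FPKM in the others, and at 27.3, 24.97 and 26.1 FPKM with ITGB4 siRNA. VARS2, AARS2 and PARS2 were also higher in replicate 1 of both groups. EPRS (glutamyl and prolyl) was at 28.5 FPKM in control replicate 1 and at 33.5 and 31.5 FPKM in the others, and at 31.1, 32.2 and 33.1 FPKM with ITGB4 siRNA. DARS, LARS, FARSB, RARS2 and YARS2 were likewise lower in replicate 1 of both groups. Across the 37 genes the differences of replicate 1 in the groups had a Pearson r of 0.60, beside 0.17 across all genes tested. Levels were not matched here or for the shared signs above. The median level was 17.8 FPKM for the synthetases and 6.24 FPKM for all genes tested, and low levels vary more. Whether the pattern is particular to synthetases was not tested. The genes share their libraries and are not independent replicates. The labels do not say what the replicate number stands for.

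**Figure D5:**
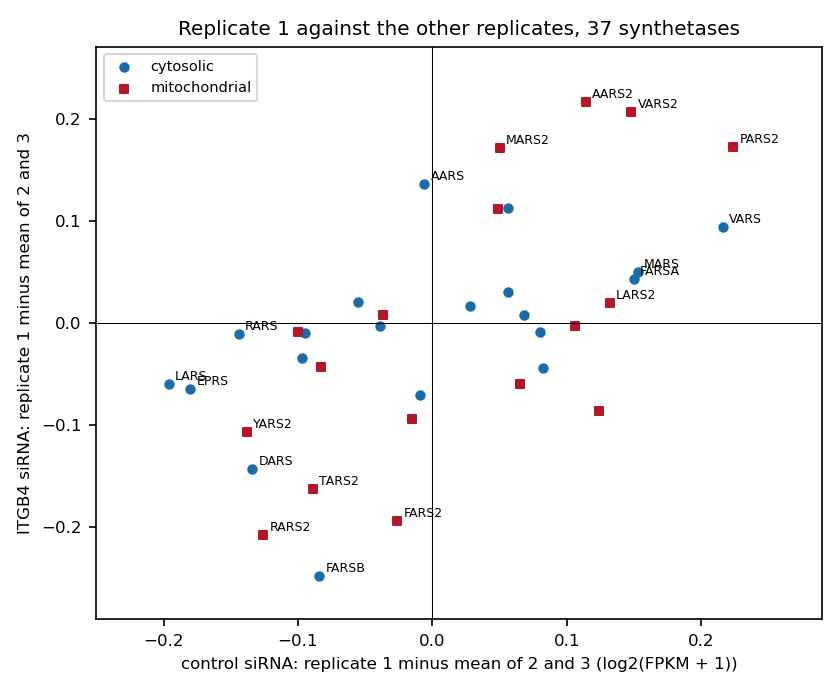
Each point is 1 synthetase: replicate 1 minus the mean of replicates 2 and 3 on the log2(FPKM + 1) scale, in control siRNA libraries (horizontal) and ITGB4 siRNA libraries (vertical), circles for cytosolic and squares for mitochondrial genes. Of the 37 points, 29 lie on the lower left or the upper right of the lines at 0.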

How the data were processed

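RNA of 6 SW480 libraries was sequenced after poly-T capture, per the labels' protocols. The authors deposited FPKM values per gene on GRCh38 with the gene length. The aligner, the counting tool and the strand setting are not given in the sources used here. The gene IDs matched GENCODE 29 for 58735 of 58735 genes, with the same coordinates for 99.9%, and the deposited length equalled the union of exons for 99.98%. FPKM times length gave whole reads for 100% of values at a tolerance of 0.01, so depth was known.

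Sample titles gave the groups. Every gene whose mean reached 1 FPKM was tested with limma 3.58.1 (limma-trend, R 4.3.3) on log2(FPKM + 1), two-sided, with Benjamini-Hochberg adjustment over all 12871 genes and a threshold of 0.05. The pseudocount of 1 makes fold changes of low genes too small. For named genes the mean FPKM was compared in an exact permutation test, two-sided. Intervals are 95% confidence intervals. Alternatives were another pseudocount, other filters and scalings, robust moderation, the replicate number as a term, each library left out, and limma-voom with TMM scaling on the recovered reads.

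1 mitochondrial member enters the counts, sums and medians and is otherwise not reported here. Members and gene lists were chosen with earlier results of these data known, so lists are described by counts and medians. Values in every library were given for the 6 synthetases with the smallest p (fewer than 6 had an unadjusted p under 0.05) and for the highest and lowest 3 by level, and for the siRNA target. They were also given for DDIT3 and TRIB3, and for VARS and EPRS, chosen after their differences in replicate 1 were seen. From each related list at most 3 tested genes were named, those with the smallest p. ATF4, further neighbours and list members named beyond this were chosen after their values were seen. Promoter windows came from RefSeq (GRCh38.p14). Scripts ran in Python 3.11.15 with pandas 2.3.3.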

Additional observations from a re-analysis of the deposited data

How the results depend on the processing

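No synthetase was called changed under any alternative tried, with 0 to 3 of the 37 at an unadjusted limma p under 0.05. The count over all genes, 6, became 0 without a filter on low values (1356 genes at an unadjusted p under 0.05), 28 with limma-voom on recovered reads (730), and 0 to 7 when 1 library was left out. With the replicate number as a block (replicate block) 0 genes were called, with 1064 at an unadjusted p under 0.05, and 0 synthetases, of which 3 had such a p (HARS, HARS2 and AARS2). The fits without ITGB4 siRNA replicate 1, 2 or 3 also called 0 genes. Where 0 of all genes were called, the siRNA target ITGB4 was not called either, so 0 synthetases says little in those fits. Same-numbered libraries of the groups had correlations of 0.173, 0.102 and -0.01 between their deviations, and differently numbered ones had -0.174 to 0.086. The labels do not say what the number marks, so it was not taken to pair the libraries. Leaving out 1 library gave cytosolic medians of 0.019 to 0.042, mitochondrial medians of -0.002 to 0.034, and differences between them of -0.022 to 0.016. Without ITGB4 siRNA replicate 2 the mitochondrial median was 0.034 and the higher of the medians. HARS kept 0.115 to 0.164 and HARS2 0.126 to 0.158. Near 0, MARS2 and YARS2 were 0.003 as TPM and YARS2 was 0.003 with limma-voom, against -0.001 each. With 1 library left out, 22 of 36 genes turned sign.
The ranges were -0.008 to 0.065 for AARS, -0.016 to 0.041 for CARS2, -0.014 to 0.079 for DARS, -0.001 to 0.059 for EARS2 and -0.014 to 0.098 for EPRS. They were -0.042 to 0.045 for FARSA, -0.079 to 0.074 for FARSB, -0.015 to 0.033 for IARS, -0.014 to 0.039 for IARS2, -0.03 to 0.073 for LARS and -0.039 to 0.048 for LARS2. MARS gave -0.062 to 0.024, MARS2 -0.058 to 0.04, NARS -0.01 to 0.04, QARS -0.018 to 0.027, RARS2 -0.015 to 0.115 and TARS2 -0.064 to 0.047. VARS gave -0.074 to 0.059, VARS2 -0.087 to 0.043, WARS -0.032 to 0.04, YARS -0.065 to 0.005 and YARS2 -0.097 to 0.06.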
